A study of Mus musculus with 2 samples.

Results

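GIP-dominant enteroendocrine cells, the K cells of the gut, were taken from single-cell RNA-Seq of mouse small intestine by the hormone that each cell carried most of. A barcode was kept when it held at least 500 detected genes and 1000 unique molecular identifiers (UMIs, each standing for 1 captured mRNA molecule) and at most 25% mitochondrial UMIs. It was counted as a K cell when it held fewer than 3 UMIs of Neurog3, when Gip had the most UMIs among Gip, Gcg, Pyy, Cck, Sst, Ghrl and Nts, and when Gip made at least 1% of its UMIs. K cells were thus chosen by measured Gip. The rule gave 710 K cells among 8761 kept cells of 12591 deposited barcodes, with 213 of 3129 in the library labelled WT and 497 of 5632 in the library labelled NFKO. The levels of Gip, of the 6 other hormones of the rule and of Neurog3 are therefore a description only.

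The study sorted Tomato-positive epithelial cells from the whole small intestine of mice aged 4 to 6 weeks, after the attached pancreas had been dissected away, and made 1 library by 10x Genomics 3′ chemistry for each genotype. Both groups carried Neurog3Cre and Rosa26tdtomato, so that cells with a history of Neurog3, the transcription factor that starts endocrine differentiation, were marked by the red reporter. The group labelled WT carried no further allele, and the group labelled NFKO carried FoxO1 f/f in addition, which places the deletion of Foxo1 in the Neurog3 lineage and not in the rest of the gut. Each library pooled the intestines of 4 to 5 mice, and Neurog3Cre also marks many non-endocrine epithelial cells, so the sort was not a sort of K cells.

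K cells lie mainly in the upper small intestine and release GIP, the glucose-dependent insulinotropic polypeptide, after a meal of fat or sugar. GIP is an incretin: it raises insulin secretion by beta cells when glucose is high, and it acts on fat tissue and bone as well. Enteroendocrine cells form from Neurog3-expressing progenitors in the crypt, keep hormone in dense-core granules, and may change the mix of hormones they make while they migrate up the villus. FoxO1 is a transcription factor that insulin signalling moves out of the nucleus, and its loss in gut endocrine progenitors is studied as a route to insulin-producing cells.

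The 2 libraries differed in ways that touch every comparison between them. With values given in the order WT and then the library labelled NFKO here and throughout, K cells had a median of 7361 and 17014 UMIs, 2691 and 4188 genes and 6.82% and 2.47% mitochondrial UMIs. Sex-linked transcripts typed 150 of the 213 WT K cells as male and none as female, and 23 of the 497 K cells of the library labelled NFKO as male and 436 as female. Genotype, sex and the handling of the single library therefore cannot be told apart, and no p-value is given. Intervals in parentheses are exact 95% intervals that cover counting error only. The 2 libraries shared 6 barcodes, of which 0 were K cells.

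Transcripts of other epithelial cells moved with the library. In 4 WT K cells, or 1.88% (0.514 to 4.74), and in 92 K cells of the library labelled NFKO, or 18.5% (15.2 to 22.2), markers of goblet cells, Paneth cells and enterocytes together made at least 2% of UMIs. These are called mixed cells here. Cells led by another of the 7 hormones held them too, with 25 of 424 and 205 of 817, or 5.90% (3.85 to 8.58) and 25.1% (22.2 to 28.2). The mixed K cells had medians of 20667 and 13131 UMIs, and 2 of the 4 and 41 of the 92 were among the cells with the highest doublet scores. Values without the mixed cells, a limit chosen after the data were seen, are given beside each result that they move.

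Gip made a median of 7.47% of a WT K cell's UMIs, with a range of 1.09% to 34.8%. It made a median of 16.4% in the library labelled NFKO, with a range of 1.05% to 48.8%. Single cells of the 2 libraries overlapped over most of this range, and the lower and upper quartiles were 3.64% and 13.7% in WT and 8.51% and 27.5% in the other library. Few cells lay near the limit: 7 and 6 K cells held 1% to 1.2% Gip, the lowest at 1.09% and 1.05%, while 4 and 6 cells led by Gip were left out with 0.8% to 1%, the highest at 0.922% and 0.971%. Another 6 Gip-led cells of the library labelled NFKO were left out for Neurog3. Gip lies on chromosome 11 at chr11:96024545-96030831 on the plus strand (GRCm38), and encodes the prohormone from which GIP is cut.

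**Figure D1:**
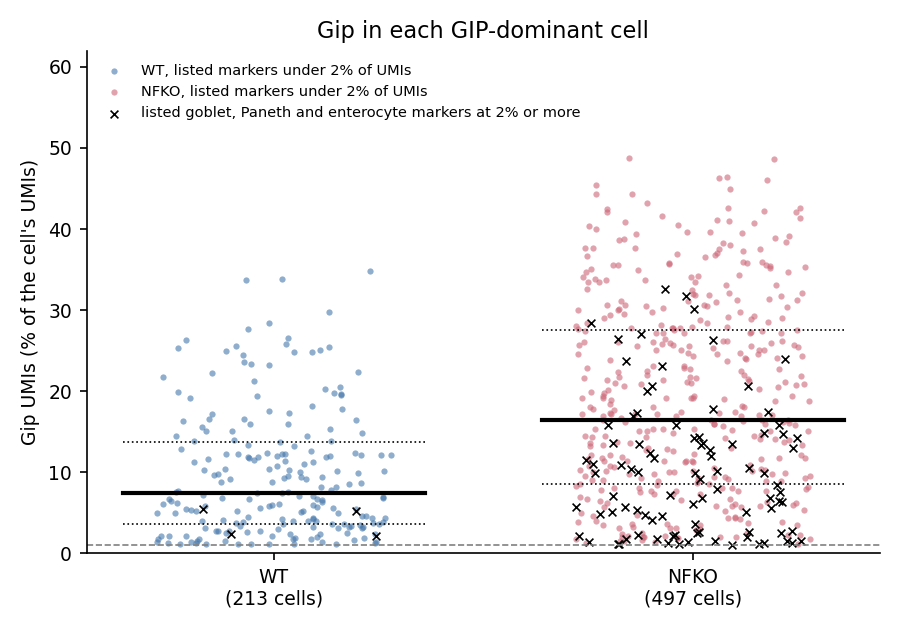
Gip as a percentage of each K cell's UMIs (y axis, linear scale), 1 point per cell, for the 213 WT cells and the 497 cells of the library labelled NFKO, with solid lines at the medians, dotted lines at the quartiles, a dashed line at the 1% limit and crosses for mixed cells. The medians are 7.47% and 16.4%, and the 2 clouds overlap from the 1% limit up to the highest WT cell at 34.8%.

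Summed over cells, Gip stood at 103313 and 166117 UMIs per 1000000 UMIs (CPM), a ratio of 1.61 (1.60 to 1.62) that is larger than counting error. The ratio was 1.84 without the mixed cells, 1.74 when the 7 hormones were left out of the totals, and 2.23 in male-typed cells, which number 150 and 23. Gip was also counted in cells that should lack it: goblet cells held 26.8 and 162 CPM of Gip, and tuft cells 64.7 and 227 CPM. Barcodes under 1000 UMIs held 1193 and 18617 CPM. K cells were chosen by their Gip and goblet cells below the hormone limit of the rule. The lower Gip of goblet cells than of K cells is therefore set by the choice of cells and is no result. The source of the Gip UMIs in goblet and tuft cells was not tested.

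K cells made 6.81% (5.95 to 7.75) of kept WT cells and 8.82% (8.10 to 9.60) of kept cells in the other library, so that their share was 1.30 (1.10 to 1.53) times the WT share. The filter for kept cells removed 38.1% and 25.3% of barcodes. The ratio stayed above 1, interval included, with at least 5% Gip, at 1.69 (1.39 to 2.06), with the stricter barcode filter, at 1.40 (1.18 to 1.68), with no Neurog3 limit, at 1.31 (1.12 to 1.55), and without the highest doublet scores, at 1.21 (1.02 to 1.43). With every deposited barcode it was 1.86 (1.60 to 2.18), from 230 and 640 K cells. That setting takes in barcodes under 1000 UMIs, which held 0.119% and 1.86% Gip in sum, so it is no clean check of the share. The ratio was 1.08 (0.909 to 1.28) when mixed cells were not counted as K cells and the totals were kept. It was 1.13 (0.961 to 1.33) when K cells were counted among the 637 and 1314 cells led by any of the 7 hormones, of which they made 33.4% and 37.8%. Among male-typed cells the shares were 5.91% and 6.28%, a ratio of 1.06 (0.654 to 1.66). The last 3 intervals include 1.

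Beside Gip, 4 genes that the rule did not use were looked at. They were picked as K cell genes with earlier results of these data known, so their levels describe the cells and are no separate check of the label. They were Fabp5, a fatty acid binding protein, Cnr1, the cannabinoid receptor CB1, Pkib, an inhibitor of protein kinase A, and Rbp4, the plasma carrier of retinol. Fabp5 stood at 7788 and 10128 CPM in K cells and at 739 and 1089 CPM in the 424 and 817 cells led by another of the hormones, called other hormone cells below. Cnr1 stood at 323 and 336 CPM in K cells against 20.3 and 20.9 CPM, and Pkib at 250.4 and 303 CPM against 14.6 and 19.5 CPM. These 3 genes were higher in K cells by 10.5 and 9.30 times, 15.9 and 16.1 times and 17.2 and 15.5 times. Rbp4, at 1115 and 1799 CPM against 599.6 and 1027 CPM, differed less, by 1.86 (1.76 to 1.96) and 1.75 (1.71 to 1.79) times. Cells led by Cck held 1007 and 1543 CPM of Rbp4 and cells led by Sst 1053 and 1084 CPM, so Rbp4 was only a little higher in K cells than in these. Fabp5, Cnr1 and Pkib were highest in K cells by a wide margin over the 5 other hormone classes in both libraries, with the nearest level in cells led by Cck for Fabp5, at 1507 and 1694 CPM. Fabp5 lies at chr3:10012548-10016607 and Cnr1 at chr4:33924593-33948831, both on the plus strand. Pkib lies at chr10:57631981-57741112 on the plus strand and Rbp4 at chr19:38116629-38125281 on the minus strand.

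Detection at equal depth gave the same order. In cells thinned to 2000 UMIs, 210 and 470 K cells after 3 and 27 shallower ones were left out, Fabp5 was detected in 93.8% and 98.7%, and in 3.83% and 8.63% of 1356 and 1668 goblet cells. Cnr1 was detected in 51.4% and 44.9% of K cells and in 0.0737% and 0.0600% of goblet cells. Without thinning, 86.9% and 87.1% of K cells held a UMI of Cnr1.

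**Figure D2:**
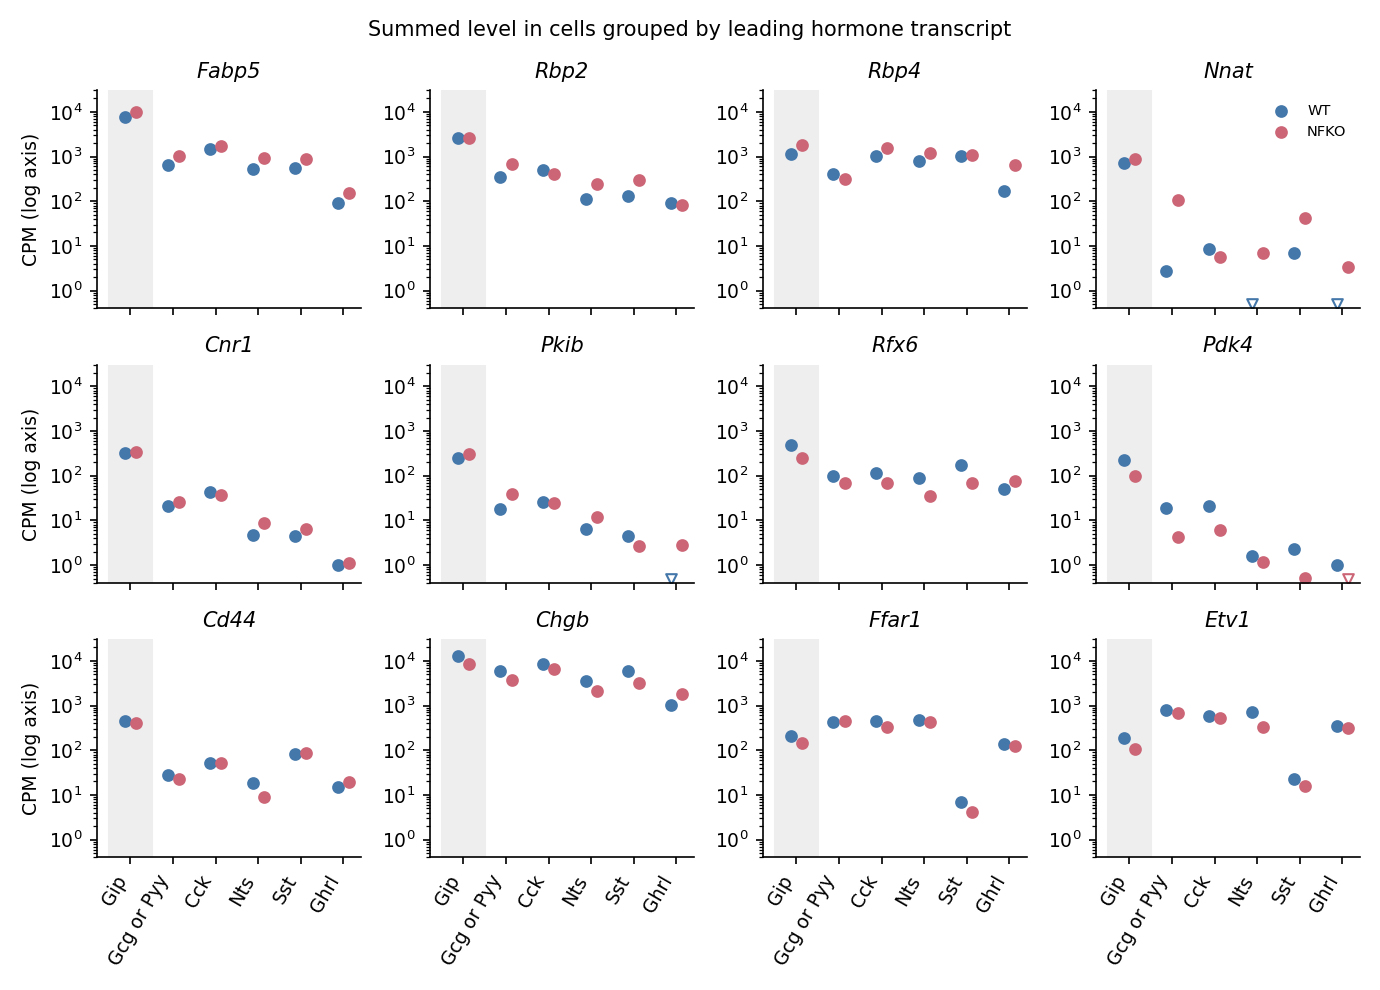
Summed level (CPM, log axis) of genes in the 6 classes of hormone cells, named by their leading hormone, 1 point for each library, with the Gip class shaded and open triangles at the bottom edge for 0 UMIs. Fabp5, Cnr1 and Pkib are highest in the Gip class in both libraries, and Rbp4 reaches 1007 and 1543 CPM in the Cck class against 1115 and 1799 CPM in the Gip class.

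Over all genes, these markers included, 92 of 3142 genes tested (2.93%) reached 2-fold above other hormone cells in both libraries and 80 (2.55%) stood 2-fold or more below. The test took genes that reached 50 CPM in K cells or other hormone cells of each library. Since 1 group could meet the minimum alone, here and in the comparisons that follow, genes that did so only where they were high had to differ, and the counts are a description. Other hormone cells are a mixture, so a ratio against them can rest on 1 class. Without the mixed cells the counts were 87 (2.71%) and 94 (2.93%) of 3209. The 10 genes with the highest ratios were Nnat, Pdk4, Cnr1, Pkib, Defa34, Nqo1, Defa36, Cd44, Pdzd3 and Fabp5, and 8 of them stayed in the first 10 without the mixed cells. Defa34 and Defa36, Paneth defensins, did not: most of their UMIs came from 1 or 2 cells, and without the mixed cells their ratios were 1.73 and 1.04 and 1.12 and 1.15.

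Among the regulators, Rfx6, a transcription factor needed for Gip expression and for islet development, stood at 497 and 249 CPM in K cells and 100.2 and 63.1 CPM in other hormone cells, ratios of 4.96 (4.48 to 5.50) and 3.95 (3.65 to 4.28). Prdm16, a zinc finger transcription factor, stood at 84.3 and 67.0 CPM against 14.1 and 18.5 CPM, ratios of 5.99 (4.58 to 7.88) and 3.63 (3.12 to 4.22). Of 19 endocrine transcription factors tested, these 2 were higher in K cells and 3, Etv1, Hhex and Onecut3, were lower. Over all genes tested 2.93% were higher and 2.55% lower. The median log2 ratio of the 19 was 0.09 and 0.01, against −0.15 and −0.13 over all genes tested. Pax6, which also acts on the Gip promoter, differed by 1.48 and 1.43 times and Isl1 by 1.18 and 1.05 times. Pdx1, the transcription factor of duodenum and beta cells, stood at 35.4 and 68.1 CPM against 13.4 and 38.5 CPM and missed the minimum level. Cells led by Sst held more Pdx1 than K cells, at 91.9 and 168 CPM. Etv1, an ETS factor, stood at 183 and 104 CPM in K cells and 609.5 and 425 CPM in other hormone cells, but cells led by Sst, at 23.0 and 15.9 CPM, held less than K cells. Hhex, a factor of somatostatin cells, was high in cells led by Sst, at 738 and 756 CPM, and its lower ratio rests on them. It had 0 UMIs in WT K cells, which allows up to 1.5 CPM, and 249 UMIs in the library labelled NFKO, most of them in 7 cells. In that library K cells, at 28.4 CPM, stood above the other 4 classes, at 2.22 to 19.1 CPM. Onecut3, at 0.998 and 12.0 CPM in K cells and 127 and 178 CPM in other hormone cells, was also low in cells led by Sst, at 0 and 3.17 CPM.

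Several genes of lipid handling, and Pdk4, Nqo1, Cd44 and Nnat, were higher in K cells than in other hormone cells. Rbp2, the cellular retinol binding protein of the enterocyte, stood at 2541 and 2632 CPM in K cells and 299 and 381 CPM in other hormone cells, ratios of 8.51 (8.06 to 8.98) and 6.91 (6.71 to 7.12). Fabp1, the liver-type fatty acid binding protein, stood at 218 and 470.4 CPM against 31.5 and 119 CPM, ratios of 6.94 (5.83 to 8.27) and 3.97 (3.75 to 4.21). Cells led by Gcg or Pyy held 4.42 and 327 CPM of Fabp1, nearer to K cells in the library labelled NFKO. Fabp1, Fabp5 and Rbp2 were the 3 of 12 tested genes of fatty acid and retinoid handling that were higher, beside 2.93% of all genes tested. The median log2 ratio of the 12 was 0.58 and −0.06, against −0.15 and −0.13 over all genes tested. Ttr, the transthyretin that carries retinol binding protein, was the 1 that was lower, at 53.9 and 118 CPM against 203 and 471 CPM. Pdk4, the kinase that shuts pyruvate dehydrogenase, stood at 226 and 100.1 CPM in K cells and at only 13.6 and 3.20 CPM in other hormone cells. Nqo1, a quinone reductase, stood at 61.8 and 122 CPM against 4.36 and 10.2 CPM, and Cd44, the hyaluronan receptor, at 449 and 414 CPM against 34.3 and 38 CPM. Nnat, neuronatin of the endoplasmic reticulum, had ratios of 192 (127 to 308) and 26.3 (23.9 to 29.0), but most of its UMIs lay in 7 and 24 cells and 27.2% and 54.1% of K cells held any.

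Signalling through cyclic AMP, the messenger that drives GIP release, was represented by a cyclase and its brake. Adcy1, a calcium-stimulated adenylyl cyclase, stood at 87.8 and 68.0 CPM in K cells and 13.6 and 8.80 CPM in other hormone cells, ratios of 6.47 (4.94 to 8.52) and 7.73 (6.35 to 9.47). Adcy1 and Pkib were the 2 of 7 genes tested in the cAMP list that were higher in K cells, beside 2.93% of all genes tested. Gnas, the stimulatory G protein, differed by 0.989 and 0.854 times. Pkia, a relative of Pkib, was also higher, at 26.9 and 26.3 CPM against 10.2 and 11.9 CPM, below the minimum level for a call. Inhbb, the beta B subunit of activin and inhibin, stood at 22.9 and 45.2 CPM against 1.68 and 1.60 CPM and was likewise under the minimum.

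Nutrient receptors did not follow a single pattern. Ffar1, the receptor of long-chain fatty acids, stood at 205 and 149 CPM in K cells and 364 and 303 CPM in other hormone cells, of which those led by Sst held 6.89 and 4.23 CPM, and Ffar4, a further long-chain fatty acid receptor, at 67.8 and 67.6 CPM against 40.0 and 42.0 CPM. Slc5a1, the sodium-glucose cotransporter through which glucose releases GIP, stood at 287 and 201 CPM against 172 and 122 CPM. Single classes came near K cells in Slc5a1, with 295 CPM in WT cells led by Nts and 197 CPM in cells led by Gcg or Pyy of the library labelled NFKO. Cnr1 was the 1 of 7 receptors tested that reached 2-fold in favour of K cells, beside 2.93% of all genes tested. Ffar2, the receptor of short-chain fatty acids, at 17.5 and 23.7 CPM against 138 and 136 CPM, and Slc15a1, the peptide transporter, at 37.9 and 49.5 CPM against 130.3 and 134 CPM, were lower, beside 2.55%. Among 10 granins and processing enzymes, Chgb was higher in K cells, at 12879 and 8611 CPM against 5355 and 4067 CPM, and Chga was lower, at 213 and 305 CPM against 622 and 814 CPM. Pcsk1, the convertase that cuts proGIP, had ratios of 0.848 (0.776 to 0.925) and 0.80 (0.762 to 0.839).

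The lowest ratios were those of Fxyd2, Kcnk16, Agr3, Plb1, Onecut3, Adgrd1, Krt20, Ceacam10, Serpina1e and Serpina1b, all of which stayed in the lowest 10 without the mixed cells. Kcnk16, a background potassium channel of islets, stood at 2.49 and 4.55 CPM in K cells and 84.1 and 105 CPM in other hormone cells. Krt20, a keratin of mature villus epithelium, stood at 72.8 and 96.6 CPM against 855 and 976 CPM, and Plb1, a phospholipase of the brush border, at 2.99 and 3.76 CPM against 91.8 and 68.2 CPM. Cells led by Sst held less Krt20 than K cells, at 34.5 and 71.9 CPM, and Plb1 was highest in cells led by Ghrl, at 409.9 and 414 CPM. Fxyd2, a regulator of the sodium pump, was held by 0.939% and 2.82% of K cells and was highest in cells led by Ghrl, at 231 and 335 CPM.

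Many K cells carried a further hormone. At least 1% of UMIs came from 1 of the 6 other hormones of the rule in 26 WT K cells, or 12.2% (8.13 to 17.4), and in 96 K cells of the library labelled NFKO, or 19.3% (15.9 to 23.1). Cck, the hormone of I cells, was the most frequent, in 10.3% (6.59 to 15.2) and 14.9% (11.9 to 18.3). Pyy, which slows the gut, followed with 2.35% (0.766 to 5.39) and 5.63% (3.78 to 8.04), and Gcg, the source of GLP-1, with 1.88% (0.514 to 4.74) and 1.81% (0.831 to 3.41). Sst, Ghrl and Nts reached this level in 0 of 213 WT K cells each, which allows a share of up to 1.72%, and in 4, 1 and 5 cells of the other library. The intervals of the 2 libraries overlap for each of these hormones.

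**Figure D3:**
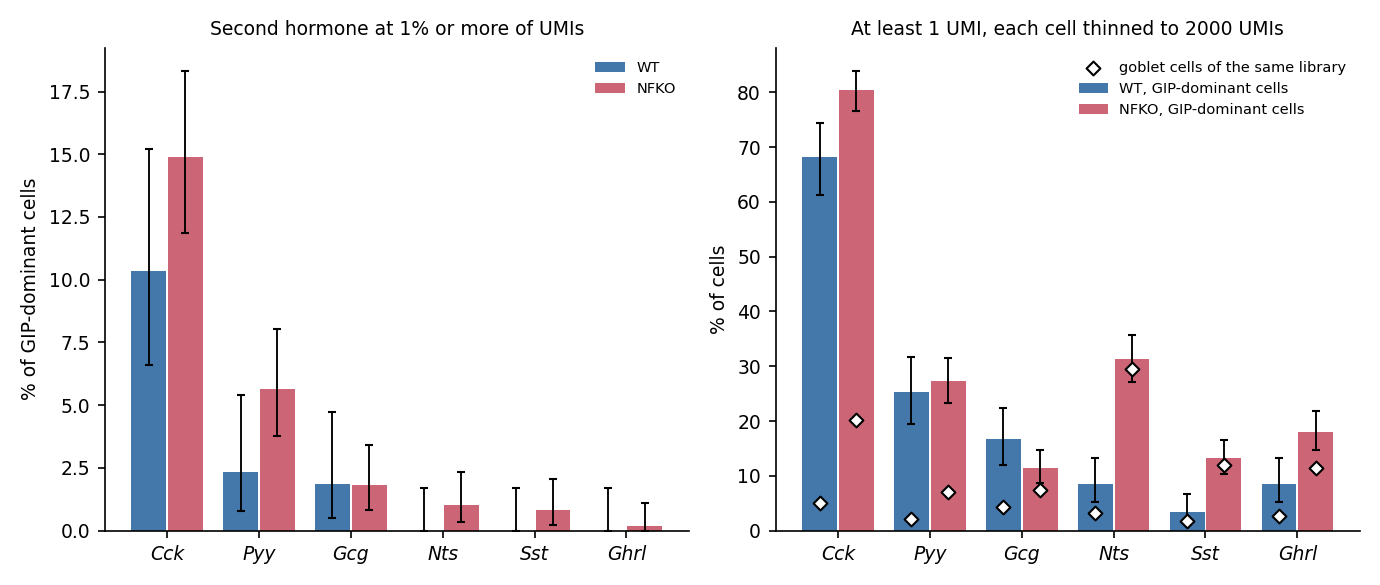
Further hormones in K cells. Shares of K cells with at least 1% of UMIs from each of the other hormones, and shares of cells with any UMI after thinning to 2000 UMIs, are drawn for each library as bars with exact 95% intervals, and diamonds give the thinned shares in goblet cells. Cck leads in both, and in the library labelled NFKO the thinned shares of Sst and Nts in K cells lie near those of goblet cells.

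At equal depth Cck was detected in 68.1% and 80.4% of K cells and in 5.09% and 20.1% of goblet cells. Pyy was detected in 25.2% and 27.2% of K cells against 2.14% and 7.07% of goblet cells. Nts, in contrast, was detected in 8.57% and 31.3% of K cells against 3.17% and 29.4% of goblet cells, and Sst in 3.33% and 13.2% against 1.70% and 11.9%. For Nts and Sst in the library labelled NFKO the shares in K cells are near those of cells that should lack the hormone. Single K cells of that library held up to 6.76% Nts and 14.2% Sst, and the source of these UMIs was not tested. Gcg, at 16.7% and 11.5% of K cells, lay above the 4.35% and 7.43% of goblet cells. Goblet cells were chosen below the hormone limit of the rule, so their shares leave out any cells with more of these hormones.

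Iapp, the amylin of beta cells, and the insulin genes were looked at because the study concerns beta-like cells. Iapp had 5 UMIs in WT K cells and 1498 in the library labelled NFKO, but 3 cells held most of the latter, and at equal depth 0.476% and 7.45% of K cells were positive against 0.590% and 1.02% of goblet cells. In other hormone cells Iapp stood at 229 and 1362 CPM, carried by cells led by Sst at 3087 and 9570.0 CPM. In the library labelled NFKO, K cells, at 171 CPM, stood above the other 4 classes, at 31.7 to 70.6 CPM. Ins1 and Ins2 had 0 UMIs in K cells of both libraries, which allows up to 1.5 and 0.342 CPM each. Abcc8, the sulphonylurea receptor of beta cells, stood at 278 and 256 CPM, while Nkx6-1, G6pc2 and Slc30a8 had 0 UMIs.

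Secretin varied widely among K cells. Sct, a hormone that was not part of the rule, stood at 18535 and 33368 CPM over all K cells. At equal depth it was detected in 98.1% and 98.3% of them. Other hormone cells held 17235 and 40518 CPM and were positive in 95.3% and 98.4%, so Sct was not particular to K cells. Of goblet cells 40.8% and 66.8% were positive at equal depth. The K cells of each library were split into 3 equal groups by the share of Sct in their UMIs, leaving out the mixed cells. The 69 WT cells with least Sct held 3271 CPM and the 69 with most held 44607 CPM, against 4771 and 90168 CPM in the 135 and 135 cells of the library labelled NFKO. Depth differed little between these groups, with medians of 6055 and 5903 UMIs in WT and of 16687 and 17400 UMIs in the other library. This split was chosen after the data were seen. Sct lies at chr7:141278330-141279133 on the minus strand.

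Id genes, targets of bone morphogenetic protein, a signal that is stronger toward the villus tip than in the crypt, were higher in cells with more Sct. Levels in this split are CPM over totals without the 7 hormones and Sct. Id1, an early target of this signal, stood at 75.2 and 512 CPM in the WT cells with least and most Sct and at 66.6 and 549 CPM in those of the other library. Id3 stood at 110.5 and 621 CPM in the WT cells with least and most Sct and at 118 and 899.9 CPM in those of the other library, and Id2 at 162 and 569 CPM in the WT cells with least and most Sct and at 103 and 622 CPM in those of the other library. Thus all 3 Id genes, which encode inhibitors of basic helix-loop-helix transcription factors, were several times higher in the cells with most Sct of each library. Smad7, an inhibitor that the pathway induces in itself, stood at 21.2 and 129 CPM in the WT cells with least and most Sct and at 13 and 61.2 CPM in those of the other library. The Id genes were above the minimum of 50 CPM in both groups of cells, whereas Smad7 reached it only in the cells with most Sct. Klf4, a zinc finger factor of the same list of 6 BMP response genes, did not pass 2-fold, with ratios of 1.19 and 1.58, and Smad6, the sixth gene of the list, missed the minimum and had ratios of 4.81 and 7.59. Over all genes tested, 38 of 3608 (1.05%) passed 2-fold upward and 9 (0.249%) downward in both libraries. Hormones of other enteroendocrine cells moved with Sct as well. Pyy stood at 141 and 3240.4 CPM in the WT cells with least and most Sct and at 180.4 and 13788 CPM in those of the other library, and Cck at 2270.3 and 5330.2 CPM in the WT cells with least and most Sct and at 5589.7 and 15798 CPM in those of the other library. Gcg went different ways, at 174 and 514 CPM in the WT cells with least and most Sct. In those of the other library it stood at 1017 and 128 CPM. Over all K cells, 1 WT cell and 3 cells of the other library held most Gcg UMIs, and 3 and 8 cells most Pyy UMIs. These sums can thus follow a few cells. The part of these hormones in the result was not tested.

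**Figure D4:**
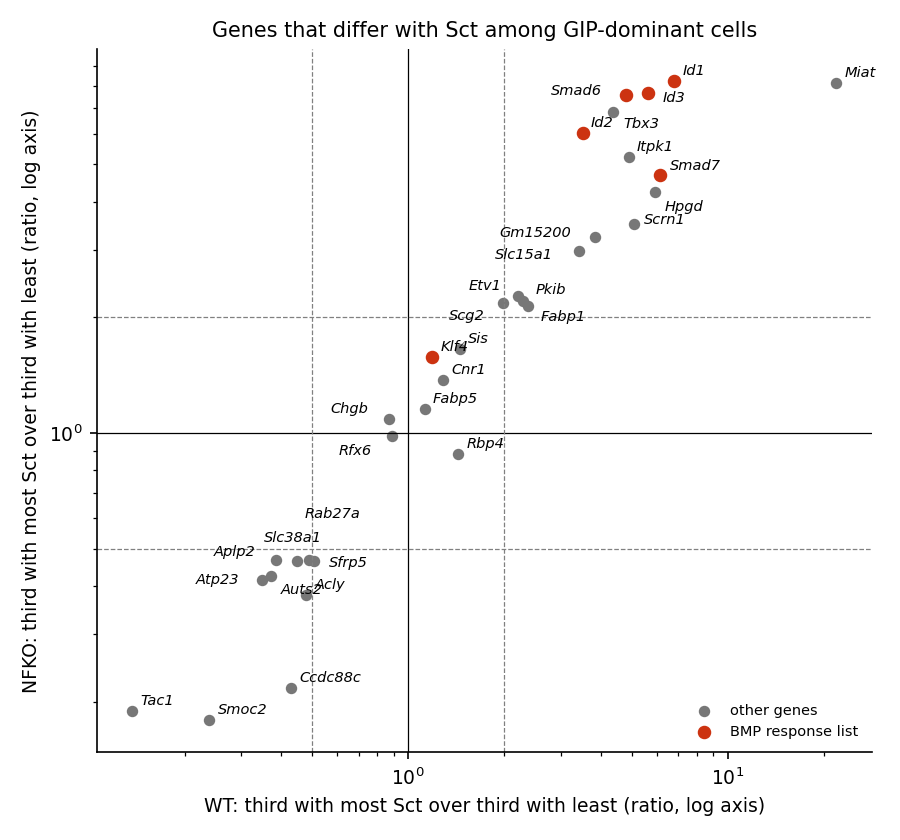
Ratio of the third of K cells with most Sct to the third with least, in WT (x axis) and in the library labelled NFKO (y axis), both on log axes, for genes named in the text and a few others, with dashed lines at 2-fold. The Id genes, Smad6 and Smad7 of the BMP response list lie at the upper right, Klf4 nearer 1, and Tac1 and Smoc2 at the lower left.

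The other genes with the highest ratios were Miat, Itpk1, Tbx3, Hpgd, Scrn1 and Gm15200. Tbx3, a T-box transcription factor, stood at 49.4 and 216 CPM in the WT cells with least and most Sct and at 29.3 and 201 CPM in those of the other library, and Hpgd, which breaks down prostaglandins, at 9.40 and 55.5 CPM in the WT cells with least and most Sct and at 31.4 and 133 CPM in those of the other library. Miat, a long non-coding RNA with the highest WT ratio, rested on 32 and 136 UMIs over all K cells. Of 11 tested genes of fatty acid and retinoid handling 4 were higher with Sct, Fabp1, Fabp2, Ttr and Mttp, beside 1.05% of all genes tested. Slc15a1, the peptide transporter of the villus, was higher as well, at 23.5 and 80.1 CPM in the WT cells with least and most Sct and at 41.7 and 124 CPM in those of the other library. The 9 genes lower with Sct were Tac1, Smoc2, Atp23, Auts2, Ccdc88c, Slc38a1, Aplp2, Acly and Rab27a. Tac1, the precursor of substance P, stood at 479 and 65.8 CPM in the WT cells with least and most Sct and at 202 and 38.2 CPM in those of the other library, although 2 WT cells held most of its WT UMIs over all K cells. Smoc2, a matrix protein of crypt-base cells, stood at 129 and 30.8 CPM in the WT cells with least and most Sct and at 107 and 19.1 CPM in those of the other library and was spread over more cells. Fabp5, Cnr1 and Rfx6 had ratios of 1.13 and 1.15, 1.28 and 1.38, and 0.892 and 0.980, so these K cell genes differed little along the same axis. Pkib, in contrast, had ratios of 2.29 and 2.21, past 2-fold in both libraries.

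Across single K cells the same relations were present as rank correlations of shares of UMIs. Sct and Id1 had Spearman coefficients of 0.47 in 209 WT cells and 0.54 in 405 cells of the library labelled NFKO, and Sct and Id3 had 0.55 and 0.58. Sct and Smoc2 had −0.27 and −0.42. Sct and Gip had −0.03 and 0.15, and Sct and Pyy had 0.32 and 0.28. Cells of 1 library share its depth and any free RNA, and Id1 had coefficients of 0.02 and 0.05 with total UMIs.

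A split by Gip itself described how K cells varied with the hormone that defines them. In the third with least Gip the median was 2.56% and 5.67% of UMIs, and in the third with most 17.3% and 31.7%, over 71 and 165 cells each. Over totals without the 7 hormones, 64 of 3514 genes (1.82%) passed 2-fold upward in the third with most Gip in both libraries and 40 (1.14%) downward. Without the mixed cells these counts were 40 and 26. Mixed cells lay mostly in the third with least Gip, 2 against 0 in WT and 54 against 7 in the other library. Depth differed as well, with medians of 4879 and 9453 UMIs from least to most Gip in WT, and of 18610 and 16401 in the library labelled NFKO.

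Some members of the granin group, though not Chgb and Chga, were at least 2-fold higher in cells with more Gip. Scg2, secretogranin 2, stood at 611 and 1415 CPM in the WT cells with least and most Gip and at 453 and 1662 CPM in those of the other library. Scg5, the chaperone of the convertase PCSK2, stood at 149 and 365 CPM in the WT cells with least and most Gip and at 247 and 732 CPM in those of the other library, and Pcsk1n, an inhibitor of PCSK1, at 140.4 and 403 CPM in the WT cells with least and most Gip and at 220.3 and 781 CPM in those of the other library. These were the 3 of 10 granins and processing genes past 2-fold in both libraries, beside 1.82% of all genes tested. The list median log2 ratio was 0.77 and 1.15, against 0.12 and 0.22 over all genes tested. Chga, at 370.4 and 174 CPM in the WT cells with least and most Gip and at 388 and 219.9 CPM in those of the other library, was not higher. Chgb, the most abundant of the group, had ratios of 1.08 and 0.906, and of 1.10 and 0.545 without the mixed cells. Cnr1 and Pkib, with ratios of 2.28 and 2.91 and of 2.32 and 3.13, and Pdk4, with ratios of 2.90 and 5.96, were also higher in the third with most Gip, while Rfx6, with 0.968 and 1.74, was not past the limit. Without the mixed cells Cnr1 had ratios of 2.35 and 1.90 and no longer passed 2-fold in the library labelled NFKO.

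The 5 highest ratios of this split belonged to Inhbb, Pls3, Entpd3, Rgs4 and Tmprss7. Inhbb stood at 6.76 and 61.1 CPM in the WT cells with least and most Gip and at 21.4 and 118 CPM in those of the other library, and Rgs4, a regulator of G protein signalling, at 145 and 578 CPM in the WT cells with least and most Gip and at 185 and 877 CPM in those of the other library. Pls3, an actin bundling protein, and Entpd3, an ectonucleotidase, had ratios of 6.40 and 4.29 and 4.23 and 4.23. The 5 lowest were Guca2b, Mgst2, Dmbt1, Reg3g and Reg3b, genes of enterocytes and of antimicrobial defence. Of the UMIs of Reg3g most came from 2 WT cells and 8 cells of the other library, and its ratios were 0.0787 and 0.0652 with the mixed cells and 0.0771 and 0.283 without them.

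The last comparison set the K cells of the library labelled NFKO beside WT K cells. Foxo1, the gene that the floxed allele targets, had 74 and 219 UMIs, or 36.9 and 24.9 CPM, a ratio of 0.676 (0.517 to 0.892). The same ratio was 0.671 in other hormone cells and 1.05 in male-typed K cells. The 3′ reads of this chemistry can lie outside the deleted exons, so the level does not check the deletion. Foxo3 and Foxo4, other members of the family, had ratios of 0.787 (0.597 to 1.05) and 1.18 (0.745 to 1.96), and Foxo6 of 1.09 (0.716 to 1.72).

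A gene entered this comparison when it reached 50 CPM in either library and 100 UMIs over both. Of 3348 such genes 64 (1.91%) passed 2-fold upward from WT and 92 (2.75%) downward. Without the mixed cells the counts were 25 (0.732%) and 87 (2.55%) of 3413. With totals that leave out the 7 hormones the split turned to 88 higher and 69 lower, and the median log2 ratio of all genes moved from −0.07 to 0.06.

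Most of the 10 highest ratios belonged to genes of goblet and Paneth cells: Mptx1, Clca1, Zg16, Gm15292, Defa21, Fcgbp and Defa22, beside Iapp, S100a6 and Ccl6. Zg16, a mucus lectin, stood at 104 and 3755 CPM with most UMIs of the library labelled NFKO in 7 of 497 cells, and Defa21, a defensin, at 138 and 3186 CPM with most in 1 cell. Without the mixed cells the ratio of Zg16 was 5.49 and that of Defa21 0.953, below 1. The goblet list had 6 of 7 genes higher, beside 1.91% of all genes tested, with a median log2 ratio of 3.58. Without the mixed cells 3 of 6 were higher, beside 0.732%, with a median of 1.32. The goblet markers were among those that defined the mixed cells, so their fall without these cells is no separate result. The class taken as goblet cells made 1358 of 3129 kept WT cells and 1734 of 5632 kept cells of the other library. This class differed between the libraries, with Defa24, a Paneth defensin, at 87119 and 11425 CPM and Muc2 at 3953 and 9018 CPM. Its shares therefore do not compare like with like. Only 3 of the 10 highest genes, Iapp, Zg16 and Fcgbp, were among the 10 highest without the mixed cells, where they were joined by Reg4, Lpl, Ambp, 2010204K13Rik, Asic5, Muc2 and Fam167a.

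**Figure D5:**
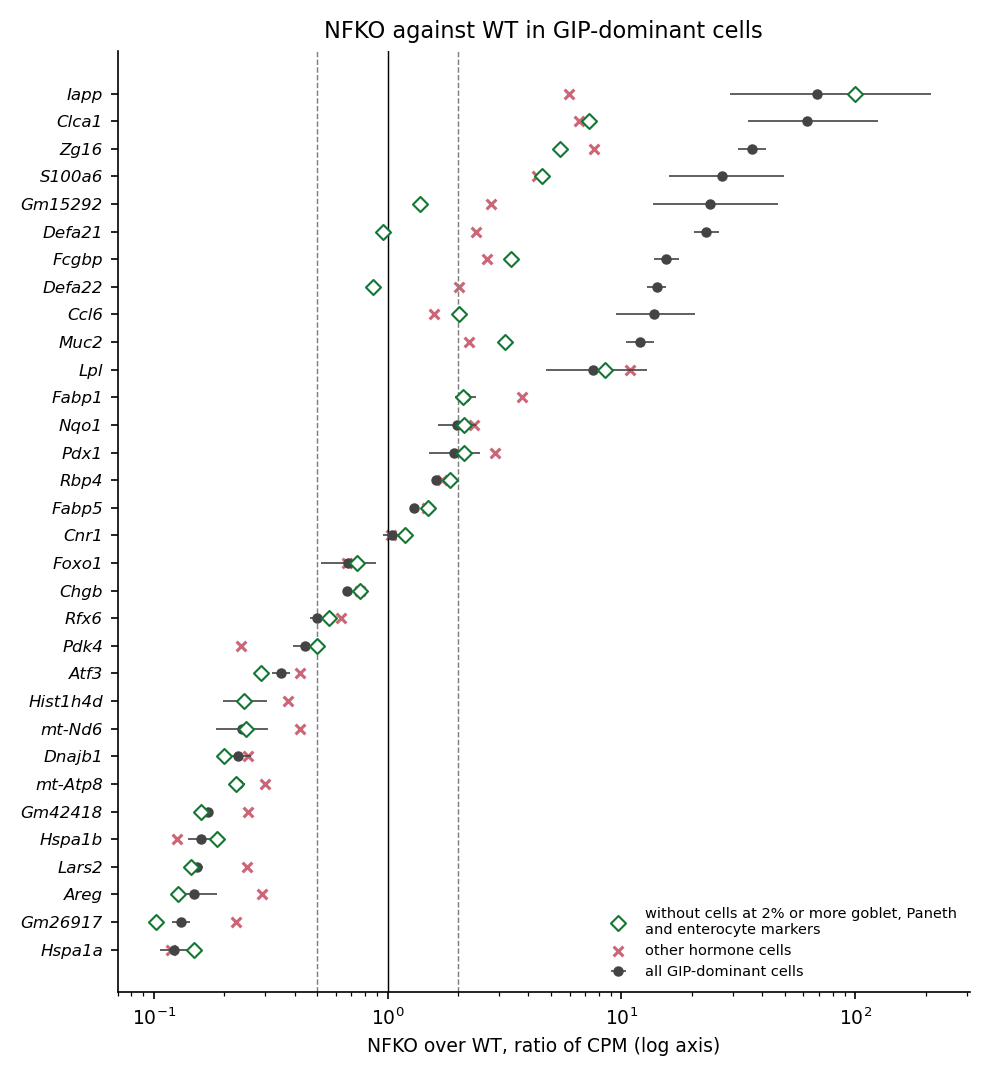
Ratio of the library labelled NFKO to WT in K cells (x axis, log scale), for named genes, over all K cells (filled points, with exact 95% counting intervals) and without the mixed cells (open diamonds), beside the same ratio in other hormone cells (crosses), with a dashed line on each side at 2-fold. Goblet and Paneth genes move toward 1 without the mixed cells, while Lpl, Rfx6 and the heat shock genes move little. Of the genes drawn, Clca1, Zg16, Fcgbp, Muc2 and Fabp1 were among the markers that defined the mixed cells.

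Of 13 tested genes of fatty acid and retinoid handling 5 were higher in the library labelled NFKO, beside 1.91% of all genes tested, and 3 without the mixed cells, beside 0.732%. Lpl, the lipoprotein lipase, which reached the minimum in that library only, had 18 UMIs in WT K cells and 597 in the library labelled NFKO, or 8.98 and 68.0 CPM, a ratio of 7.57 (4.75 to 12.9). The ratio was 8.51 (5.33 to 14.5) without the mixed cells and 7.95 in male-typed cells, which held 15 and 29 UMIs. It was detected at equal depth in 2.38% and 12.1% of K cells, and its ratio in other hormone cells was 10.9, so that cells led by other hormones differed in the same direction. Fabp1 stood at 218 and 470.4 CPM and Ttr at 53.9 and 118 CPM, with ratios without the mixed cells of 2.10 (1.90 to 2.33) and 2.37 (1.94 to 2.92). Fabp2 and Apoa1, the other 2, had ratios of 1.76 and 1.44 without the mixed cells. Rbp2, Mttp, Apob and Plin2 did not pass 2-fold, with ratios of 1.04, 0.814, 0.719 and 0.738. The list's median log2 ratio was 0.38, against −0.07 over all genes tested. Enterocyte markers moved with these genes: 3 of 4 tested were higher, with a median log2 ratio of 1.08, and 1 of 4 with 0.67 without the mixed cells, and the 7 markers summed to 867 and 1439 CPM. The markers were Alpi, Fabp1, Fabp2, Apoa1, Apoa4, Sis and Lct, of which Fabp1, Fabp2, Apoa1 and Apoa4 stand in both lists, and all were among the markers that defined the mixed cells. Their part in the result was not tested.

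Among transcription factors 0 of 21 tested passed 2-fold in either direction over all K cells, beside 1.91% higher and 2.75% lower of all genes tested. With shares this low, 0 of 21 is no result about the list. Their median log2 ratio was −0.32, against −0.07 over all genes tested. Rfx6 was next to the limit, at 497 and 249 CPM and a ratio of 0.501 (0.465 to 0.541), or 0.564 (0.522 to 0.609) without the mixed cells and 0.535 in male-typed cells. Its median over single cells was 505 and 248 CPM, it was detected at equal depth in 67.6% and 41.9% of K cells, and its ratio in other hormone cells was 0.630. Pdx1 went the other way, at 35.4 and 68.1 CPM and a ratio of 1.92 (1.5 to 2.50), which was 2.13 (1.66 to 2.76) without the mixed cells, past 2-fold. Neurod1, Pax6 and Isl1, which hold the endocrine fate, had ratios of 0.693, 0.718 and 0.799. Rfx6 lies at chr10:51677756-51730432, Pdx1 at chr5:147269959-147275848 and Foxo1 at chr3:52268336-52353221, all on the plus strand.

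Of 7 FoxO targets tested 1 was lower, beside 2.75% of all genes tested. It was Pdk4, at 226 and 100.1 CPM and a ratio of 0.443 (0.395 to 0.497). Its ratio was 0.50, just short of the limit, without the mixed cells, and 0.236 in other hormone cells. Targets that missed the minimum level went both ways. Irs2, an adaptor of the insulin receptor, had a ratio of 0.453 (0.331 to 0.625). Eif4ebp1 stood at 12.0 and 27.4 CPM and Cat at 16.0 and 21.6 CPM. Igf1r, the receptor of insulin-like growth factor, is of the insulin signalling list, whose 6 tested genes had a median log2 ratio of −0.28. It missed the minimum too, with a ratio of 0.422 (0.306 to 0.588). Cdkn1a, Sod2 and Txnip, at 1.30, 0.944 and 0.964, did not pass 2-fold. The median log2 ratio of the 7 was −0.31, against −0.07 over all genes tested.

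Granins and processing genes had ratios on both sides of 1. Of 10 tested 0 passed 2-fold, beside 1.91% higher and 2.75% lower of all genes tested, with a median log2 ratio of −0.04. Chgb stood at 12879 and 8611 CPM and Pcsk1 at 325 and 294 CPM, ratios of 0.669 (0.659 to 0.678) and 0.905 (0.830 to 0.987). Scg5 stood at 208 and 354 CPM, a ratio of 1.70 (1.53 to 1.89), which was 1.94 (1.75 to 2.16) without the mixed cells and 2.30, past 2-fold, in male-typed cells. Chga and Pcsk1n had ratios of 1.43 and 1.37. Of 12 exocytosis genes 1 passed downward, beside 2.75% of all genes tested, and their median log2 ratio was −0.39, against −0.07 over all genes tested. It was Ptprn2, a protein of the dense-core granule membrane, at 469 and 221 CPM and a ratio of 0.470 (0.435 to 0.509), or 0.526 (0.486 to 0.571) without the mixed cells. Of 6 nutrient and inhibitory receptors 0 passed, beside the same 1.91% and 2.75% of all genes tested. Cnr1 had a ratio of 1.04 (0.954 to 1.13) whose interval includes 1. Asic5, a bile acid-sensitive ion channel, was the 1 of 6 channel genes that passed upward, beside 1.91% of all genes tested. Asic5 stood at 29.9 and 82.4 CPM, although 3 WT cells and 11 cells of the other library held most of its UMIs.

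Of 15 tested heat shock and immediate early genes 7 were lower in the library labelled NFKO, beside 2.75% of all genes tested. Hspa1a, the inducible HSP70, stood at 342 and 41.6 CPM, Jun at 2015 and 802 CPM and Atf3 at 410.5 and 144 CPM. The other genes that passed 2-fold downward were Hspa1b, Hsph1, Dnajb1 and Areg, and the median log2 ratio of the list was −0.77. Without the mixed cells 7 of 15 were lower as well. Fosb, Ier2, Dusp1, Fos, Junb and Egr1 did not pass, with ratios of 0.943, 0.928, 0.783, 0.709, 0.695 and 0.587, nor did Hspa8 and Hsp90aa1, with 0.762 and 0.607. Other hormone cells held 371 and 43.9 CPM of Hspa1a, a difference in the same direction. The other genes among the 10 lowest ratios were Gm26917, Lars2, Gm42418, mt-Atp8, mt-Nd6 and Hist1h4d. Gm42418, an annotation that overlaps ribosomal RNA, made 54591 and 9285 CPM, and K cells of WT also held more mitochondrial UMIs. The part of RNA quality and handling in these differences was not tested.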

How the data were processed

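Single-cell RNA-Seq libraries from Tomato-positive cells of mouse small intestine, 1 for WT and 1 for NFKO, were deposited as gene by barcode matrices of raw UMI counts, which the authors made with Cell Ranger 5.0.1 on mm10, per the labels. Whether background RNA or doublets were removed before deposit is not given in the sources used here. Barcodes were kept with at least 500 genes, 1000 UMIs and at most 25% mitochondrial UMIs. K cells were taken by the hormone rule of the report, and no clusters were made. Goblet and tuft cells, used for background, were taken by their markers among cells below the hormone limit of the rule. Cells with more hormone could therefore not enter the background. The members, gene lists and limits were chosen with earlier results of these data known. Deposited totals were 90002878 UMIs over 5051 barcodes and 124300388 UMIs over 7540.

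For each library, the UMIs of a gene were added up over a class of cells and scaled by the total UMIs of that class (CPM). With 1 library a group there was no test and no p-value. A gene was counted as higher or lower past 2-fold, given at least 50 CPM and, between libraries, at least 100 UMIs. Intervals are exact at 95% (Poisson for CPM, Clopper-Pearson for shares, conditional binomial for ratios) and cover counting error only, and a count of 0 allows up to 3 counts in a level and the exact upper limit in a share. The genes named were the 10 highest and 10 lowest ratios of K cells to other hormone cells by the weaker of both libraries, the 10 highest and lowest ratios of NFKO to WT among genes with a UMI in at least 10% of K cells of the higher library, the 5 highest and lowest by Gip, members of fixed lists, and, chosen after the data were seen, the 10 highest and lowest by Sct. Hormones of the rule, Neurog3 and sex-linked genes were left out of these.

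Equal-depth detection used cells thinned to 2000 UMIs with a fixed seed. Doublets were not removed. As an alternative, the cells with the highest Scrublet scores were left out, 0.8% per 1000 barcodes or 126 and 340 cells, and Scrublet's own threshold marked 57 and 166. Other alternatives were a stricter barcode filter (1000 genes, 2000 UMIs, 15% mitochondrial), every deposited barcode, at least 5% Gip, no Neurog3 limit, male-typed cells, totals without the 7 hormones, median-of-ratios scaling, each cell at the same weight, and a lower minimum of 20 CPM and 50 UMIs. Leaving out mixed cells and splitting by Sct were added after the data were seen. The summing and calling steps were tested on simulated counts. Coordinates were those of GENCODE M21 on GRCm38. Python 3.11.15, numpy 2.4.6, scipy 1.17.1, pandas 2.3.3, scanpy 1.11.5 and matplotlib 3.10.9 were used.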

Additional observations from a re-analysis of the deposited data

How the results depend on the processing

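The share of K cells, NFKO over WT, kept its direction under every alternative run. It moved from 1.30 to 1.86 with every deposited barcode, 1.69 with at least 5% Gip, 1.06 in male-typed cells and 1.08 without the mixed cells. The Gip ratio of 1.61 kept its direction too, at 1.55 with the stricter barcode filter, 1.49 with at least 5% Gip, 1.63 without the highest Scrublet scores, 2.23 in male-typed cells, 1.74 with totals without the 7 hormones, 1.68 with median-of-ratios scaling, 1.88 with each cell at the same weight and 1.84 without the mixed cells. The Foxo1 ratio turned to 1.05 in male-typed cells, and the cause was not tested. Counts of genes past 2-fold moved by over 1.5 times as follows. Between libraries, 64 higher became 28 in male-typed cells, 103 with each cell at the same weight, 143 with the lower minimum, under which more genes were tested, and 25 without the mixed cells. The 92 lower became 187, 172 and 207 under the first 3 of these. Against other hormone cells, 92 and 80 became 169 and 166 with the lower minimum. By Gip, 64 higher became 24 with the 7 hormones in the totals, 148 with the lower minimum and 40 without the mixed cells. The 40 lower became 71, 80 and 26 under these, and 9 without the highest Scrublet scores. By Sct, 38 higher became 79 with the lower minimum and 13 with all UMIs as totals, and 9 lower became 40 with the mixed cells and 34 with the lower minimum. Defa21 turned to 0.953 without the mixed cells, and Defa22 to 0.809 with at least 5% Gip, 0.509 in male-typed cells and 0.866 without the mixed cells. Of 157 values for 20 named genes, 90 stayed within counting error, 63 moved beyond it in the same direction and 4, those just given, turned. No paired analysis was possible because each group has 1 library, and for the same reason no replicate could be left out. Male-typed values in the library labelled NFKO rest on 23 cells, and WT K cells, at a median of 7361 UMIs, limit the detection of low genes.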
